A study of Homo sapiens with 6 samples.

Results

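NF-κB was examined in HT-29 cells exposed to the demethylating agent 5-Aza through 10 genes. The genes were chosen by name, with earlier results of these data known. They are the 5 subunit genes (NFKB1, NFKB2, RELA, RELB and REL), the cytoplasmic inhibitors NFKBIA, NFKBIB and NFKBIE, and the nuclear IκB proteins NFKBIZ and BCL3. Of the 54675 probe sets on the array, 22 were annotated to these genes, a probe set being a group of short oligonucleotides that together report 1 transcript. A member gene was the only symbol of 20 of them. Both BCL3 probe sets also carried the microRNA gene MIR8085, and BCL3 is therefore given beside the counts over 20. Background was taken as 42, the highest signal of a bacterial control transcript. On all 6 arrays 17 of the 20 and 19 of the 22 probe sets were above it, with at least 1 for each of the 10 genes.

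HT-29 is a line established from a human colorectal adenocarcinoma, and RNA was measured on 6 HGU133 Plus2.0 microarrays, 3 per group. The 5-Aza group received 10 µM 5-aza-2′-deoxycytidine, a cytidine analog that traps DNA methyltransferases in dividing cells, for 72 hours in medium without fetal calf serum. The control group was the same line with the solvent of 5-Aza, a mixture of water and acetate. No source states whether each array had a flask of its own, so all p-values reflect the spread among these arrays alone, which may be technical, and a single line at 1 dose and 1 time point limits the model.

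NF-κB proteins bind DNA as dimers. In resting cells IκB proteins hold most of them in the cytoplasm, and signals from TNF, interleukin-1 or Toll-like receptors lead to phosphorylation and loss of IκB, which frees the canonical dimers of RELA or REL with the p50 product of NFKB1. The non-canonical route runs through receptors such as CD40 and the lymphotoxin β receptor, and through processing of the NFKB2 product to p52, which pairs with RELB. Several member genes, NFKBIA, NFKBIE, NFKB2, RELB and REL among them, are known as NF-κB target genes themselves, which gives the pathway its feedback. The named genes are examples and not a full list of the targets among the members. Whether target genes changed more than other members was not tested. In the colon epithelium the pathway governs inflammatory and survival responses.

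The arrays had been scaled to a common trimmed mean of 500, and their log2 signals correlated at 0.926 to 0.934. Markers of colon epithelium were above background on all arrays for 9 of 12 genes. The exceptions were CDX1 with 17.3 in the 5-Aza group and 11.3 in the control group, CDX2 with 42.7 in the 5-Aza group and 75.8 in the control group, and CDH17 with 27.5 in the 5-Aza group and 38.5 in the control group. The median signal was 84.6 ± 1.42 in the 5-Aza group and 74.2 ± 2.56 in the control group (SD, n = 3 each). The probes at the 3′ end of ACTB exceeded those at its 5′ end by 0.73 ± 0.086 (log2) in the 5-Aza group and by 0.54 ± 0.077 in the control group, so that this 3′ bias moved with the treatment. Centring each array on its median lowered every log2 fold change, so that the median over all probe sets became -0.12 in place of 0.06. Values below are as deposited, without that shift, unless an alternative is named. At an unadjusted p under 0.025 over all probe sets, 1621 were higher and 575 lower as deposited, 926 and 1451 after median centring, and 1091 and 909 after quantile normalization.

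Of the 10 genes, RELB, NFKBIA, NFKBIE and NFKB2 had higher signals in the 5-Aza group at an unadjusted limma p under 0.025. Their signals were 2.12, 1.77, 1.53 and 1.46 times those of the control group, in that order. The study, which names SAM as its method, had set that limit on p for these arrays. It also required a place among the highest log2 fold changes, a rule that was not applied here. In RNA from whole cultures, more cells with a transcript and more transcript per cell cannot be told apart. None of the 20 probe sets passed an adjusted p under 0.05 by limma, by limma with trend and robust variance or by a SAM-type statistic. Of the 54614 probe sets tested, 0% passed by limma and 0 by the SAM-type statistic. With trend and robust variance 22 of them were higher and 1 was lower. Without adjustment, 4 of 20 were higher at a p under 0.025, where 2.97% of all probe sets were, and 0 were lower, where 1.05% were. By the SAM-type statistic 1 of 20, RELB, was higher at that limit, while NFKBIE (p of 0.0327), NFKBIA (p of 0.0368) and NFKB2 (p of 0.0678) missed it. Over all 54614 probe sets this statistic had 1282 higher and 484 lower. With the limit set at 0.05 and still no adjustment, the counts stayed at 4 higher and 0 lower, against 5.26% and 1.97% of all probe sets. There the SAM-type statistic called 3 and 0 of the 20, beside 2439 and 957 of all 54614. In 6 of 20 every 5-Aza array lay above every control array and in 1 every 5-Aza array lay below, against 9.29% and 5.22% of all probe sets. With 1 probe set per gene, the 4 of 10 higher stood beside 3.01% of 19776 genes and the 0 lower beside 0.915%. The median log2 fold change was 0.12 over the 20 probe sets and 0.33 over the 10 genes, beside 0.06 over all probe sets and 0.04 over all genes. In a design of 3 arrays against 3, an exact two-sided permutation test of a single probe set cannot give a p below 0.1.

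**Figure D1:**
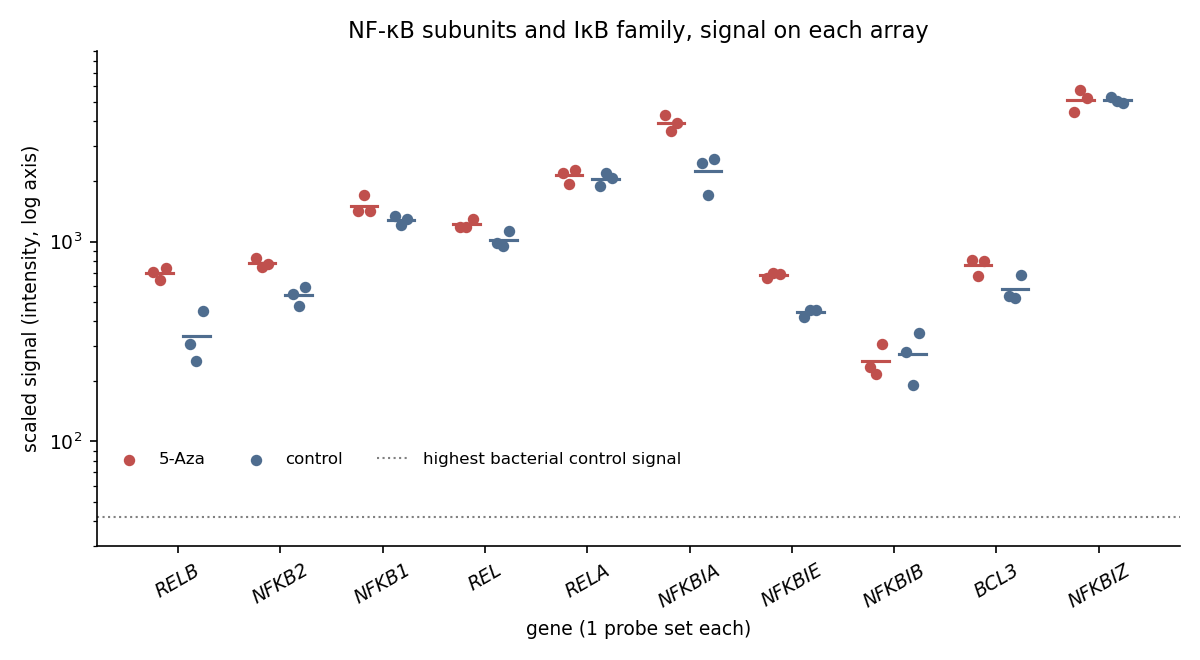
Scaled signal (intensity, log axis) of 1 probe set per gene on each of the 6 arrays, 5-Aza arrays in red to the left of control arrays in blue, with lines at the group means and a dotted line at the highest bacterial control signal, 42. The groups lie apart for RELB, NFKB2, NFKB1, REL, NFKBIA and NFKBIE, and overlap for RELA, NFKBIB, BCL3 and NFKBIZ.

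Because several of these genes are NF-κB targets and 5-Aza acts on CG sites, the windows from 250 bases before to 50 bases after the RefSeq start sites (GRCh38.p14) were read for 8 of the 10 genes, which have 14 windows. RELB and NFKBIE were not analysed here. Each window was searched on both strands for the NF-κB consensus, the κB site, counting overlapping matches, on the coding strand for TATAAA, and for CG. Of the 14 windows 9 held a κB match (64.3%), against 11.3% of 35116 windows of all genes, and they belonged to 7 genes, all but RELA. TATAAA was in 1 window, the upstream one of NFKBIZ, against 7.33% of all windows. The number of CG ran from 7 to 48 with a median of 27, against a median of 14 over all windows. The consensus is itself rich in G and C, and the windows of all genes were not matched in composition. The shares with a κB match are therefore not a like comparison. The 5 windows below are shown to set genes with a higher signal beside genes without one, and capitals mark the κB matches.
NFKB2, chr10:102394328-102394627, plus strand: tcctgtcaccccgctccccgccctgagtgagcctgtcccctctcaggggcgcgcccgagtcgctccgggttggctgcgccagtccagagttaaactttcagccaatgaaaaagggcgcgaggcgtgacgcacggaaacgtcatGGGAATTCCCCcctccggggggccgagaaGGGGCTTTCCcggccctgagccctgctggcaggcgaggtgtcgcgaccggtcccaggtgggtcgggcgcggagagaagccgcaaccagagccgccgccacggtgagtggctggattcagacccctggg
NFKB2, chr10:102395455-102395754, plus strand: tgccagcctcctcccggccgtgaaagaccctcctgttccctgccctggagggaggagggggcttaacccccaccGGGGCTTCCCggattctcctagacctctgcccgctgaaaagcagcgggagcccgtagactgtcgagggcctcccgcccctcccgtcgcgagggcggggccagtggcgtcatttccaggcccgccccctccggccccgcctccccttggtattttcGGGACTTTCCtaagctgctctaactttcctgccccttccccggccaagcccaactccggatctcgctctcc
NFKBIA, chr14:35404700-35404999, minus strand: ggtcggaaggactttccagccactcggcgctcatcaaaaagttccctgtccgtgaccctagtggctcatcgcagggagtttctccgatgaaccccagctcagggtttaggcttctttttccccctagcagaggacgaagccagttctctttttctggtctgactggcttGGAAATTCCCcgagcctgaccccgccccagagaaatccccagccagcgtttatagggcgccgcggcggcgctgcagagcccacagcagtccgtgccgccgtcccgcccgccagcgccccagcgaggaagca
NFKBIZ, chr3:101827740-101828039, plus strand: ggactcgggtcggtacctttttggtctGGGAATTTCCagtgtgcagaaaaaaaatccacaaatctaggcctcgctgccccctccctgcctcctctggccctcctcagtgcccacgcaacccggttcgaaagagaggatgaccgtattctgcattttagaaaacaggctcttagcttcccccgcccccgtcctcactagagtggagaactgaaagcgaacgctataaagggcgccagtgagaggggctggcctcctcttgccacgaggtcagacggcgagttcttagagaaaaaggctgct
RELA, chr11:65662867-65663166, minus strand: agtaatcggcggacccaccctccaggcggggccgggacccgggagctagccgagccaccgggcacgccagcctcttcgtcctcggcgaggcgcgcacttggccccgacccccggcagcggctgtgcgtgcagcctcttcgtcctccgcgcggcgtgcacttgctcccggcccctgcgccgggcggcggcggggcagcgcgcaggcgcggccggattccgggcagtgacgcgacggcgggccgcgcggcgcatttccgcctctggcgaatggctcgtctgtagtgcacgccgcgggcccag
The first NFKB2 window held 3 matches that partly overlap, at 107, 106 and 78 bases before the start, and the second held the sequence GGGACTTTCC 21 bases before it. NFKBIA had its match 81 bases before the start, on the opposite strand. The same 10 bases, GGGAATTTCC, occurred on the coding strand in NFKB1, in NFKBIB and in NFKBIZ, whose log2 fold changes were 0.23, -0.08 and 0.01. Read on the opposite strand, they were also the match in NFKBIA and a match in REL, with log2 fold changes of 0.82 and 0.25. Windows with a κB match came from genes with and without a higher signal, and the RELA window shown had no match and 48 CG, more than 98.02% of all windows. A match describes these letters only, and neither binding nor methylation was measured here.

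By 1 probe set per gene, the non-canonical subunits gave the highest log2 fold changes among the subunit genes. RELB (chromosome 19, 45001464 to 45038192, GRCh38.p14), the partner of p52, had signals of 701.8, 642.4 and 736.2 on the 5-Aza arrays and of 308.4, 251.8 and 448.2 on the control arrays. All 5-Aza arrays were above all control arrays, and the controls spread more widely, control replicate 3 being 1.78 times control replicate 2. The log2 fold change was 1.08 (SE 0.25, 95% interval 0.45 to 1.71), with an unadjusted limma p of 0.00644 and an adjusted p of 0.485. Of 54614 probe sets it stood at rank 725 by p and at rank 4399 by log2 fold change. The fold change ran from 0.90 without control replicate 2 to 1.31 without control replicate 3, and its unadjusted p stayed under 0.025 in every alternative that gave a p, with 0.0247 as the highest.

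NFKB2 (chromosome 10, 102394110 to 102402529), which encodes p100 and its product p52, was read by 3 probe sets. The brightest, 207535_s_at, had signals of 830.0, 747.3 and 776.2 on the 5-Aza arrays and of 546.8, 476.1 and 590.2 on the control arrays. These groups did not overlap, and the log2 fold change was 0.55 (SE 0.15, unadjusted limma p of 0.0147, adjusted p of 0.576). A second probe set, 209636_at, gave 368.5, 258.3 and 370.7 in the 5-Aza group and 247.8, 242.5 and 327.4 in the control group. Here 5-Aza replicate 2 lay within the control range, and the log2 fold change was 0.28 (p of 0.274). The third, 211524_at, was at background on 5 of 6 arrays and carries no usable difference. The unadjusted p of 207535_s_at, between 0.0331 and 0.0543, missed the threshold when any array but control replicate 3 was left out, and median centring brought its change to 0.36. The mean of all 3 probe sets, 211524_at included, gave 0.02.

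**Figure D2:**
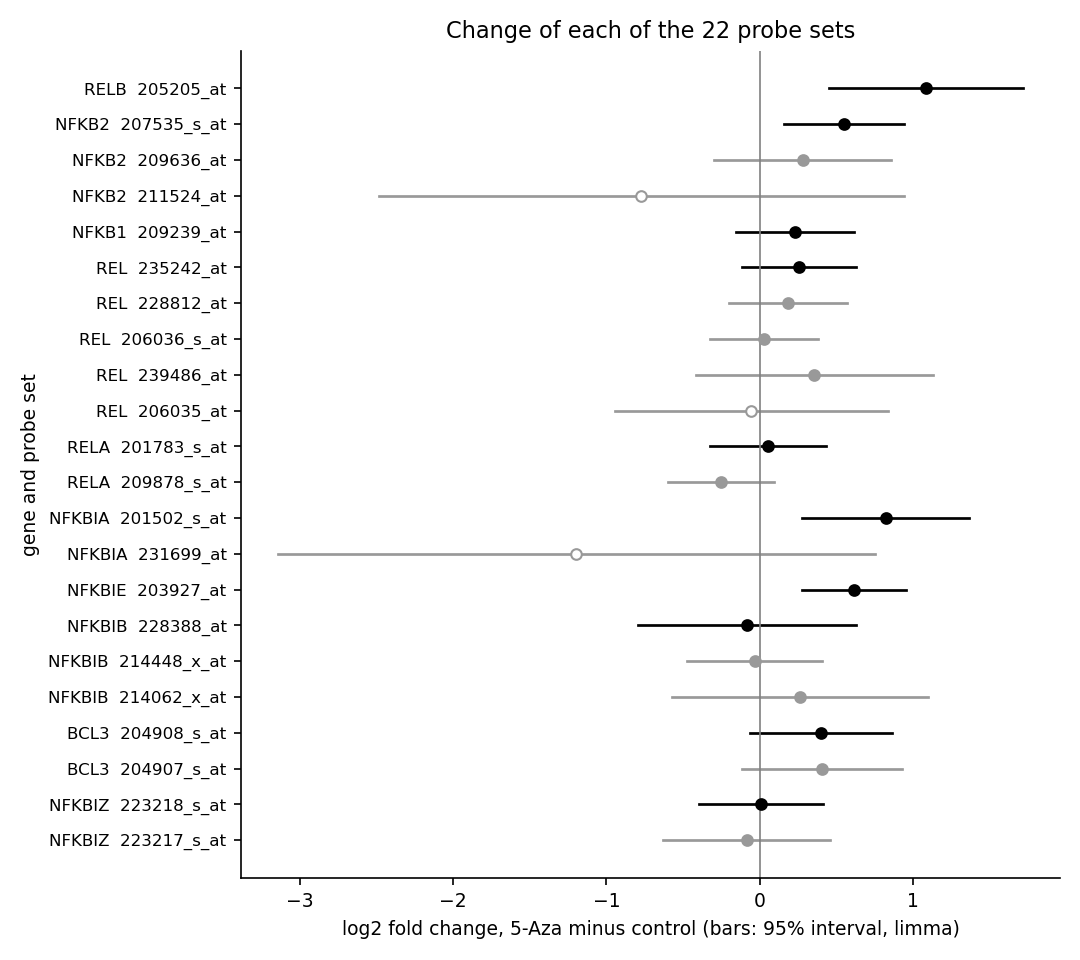
Log2 fold change (5-Aza minus control) of each of the 22 probe sets with its 95% interval from limma, grouped by gene, black for the probe set that represents the gene, grey for the others, and open where the signal was at background on at least 1 array. Intervals leave 0 out for RELB, NFKB2 207535_s_at, NFKBIA 201502_s_at and NFKBIE.

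By 1 probe set per gene, the canonical subunits had smaller fold changes, and none passed an unadjusted p under 0.025. NFKB1 (chromosome 4, 102501359 to 102617302), the precursor of p50, had signals of 1420.1, 1700.9 and 1421.1 on the 5-Aza arrays and of 1347.5, 1214.2 and 1299.6 on the control arrays. Every 5-Aza array was above every control array, though by little for 5-Aza replicates 1 and 3, and the log2 fold change of 0.23 (SE 0.15) had an unadjusted p of 0.189. REL (chromosome 2, 60881574 to 60931612) had its brightest probe set, 235242_at, at 1182.6, 1182.1 and 1290.6 in the 5-Aza group and at 987.3, 954.6 and 1128.0 in the control group. These values did not overlap either, with a log2 fold change of 0.25 (SE 0.15, p of 0.142). The other 4 REL probe sets overlapped between groups and ran from -0.05 to 0.36.

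RELA (chromosome 11, 65653601 to 65663857), the main activating subunit, was read by 2 probe sets that went apart. The brighter, 201783_s_at, had 2202.0, 1943.2 and 2281.8 in the 5-Aza group and 1905.4, 2200.8 and 2080.9 in the control group, with a log2 fold change of 0.05 (p of 0.734). The dimmer, 209878_s_at, had 886.6, 891.6 and 807.6 in the 5-Aza group and 1065.7, 984.9 and 1023.8 in the control group. By this probe set every 5-Aza array was below every control array, with a log2 fold change of -0.25 (SE 0.14, p of 0.124), so that the direction for RELA depends on the probe set.

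Among the cytoplasmic inhibitors, NFKBIA and NFKBIE were higher at an unadjusted p under 0.025 and NFKBIB did not pass. NFKBIA (chromosome 14, 35401513 to 35404749) encodes IκBα, the inhibitor that is degraded and then made again within a signal. Its probe set 201502_s_at had signals of 4275.6, 3566.6 and 3938.6 on the 5-Aza arrays and of 2476.3, 1709.1 and 2574.9 on the control arrays. The lowest 5-Aza array exceeded the highest control array, control replicate 2 was the lowest of all, and the log2 fold change was 0.82 (SE 0.22, 95% interval 0.27 to 1.37, unadjusted limma p of 0.0113, adjusted p of 0.549). It ran from 0.63 without control replicate 2 to 0.93 without control replicate 3, and its p missed 0.025 without 5-Aza replicate 1 (0.0411) or 5-Aza replicate 3 (0.0356). The study had listed this probe set as raised from these same arrays, so the direction found here is no independent evidence. A dim probe set of the gene, 231699_at, gave 68.5, 14.6 and 8.0 in the 5-Aza group and 49.7, 49.2 and 45.0 in the control group, and its log2 fold change of -1.19 had an SE of 0.77. The mean of both NFKBIA probe sets gave -0.19.

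NFKBIE (chromosome 6, 44258166 to 44265551), which encodes IκBε, was the steadiest of the 10 genes. Its signals were 658.4, 696.0 and 691.3 on the 5-Aza arrays and 420.0, 457.2 and 456.3 on the control arrays. Within either group the highest array was close to the lowest, and the groups stood well apart. The log2 fold change was 0.62 (SE 0.13, 95% interval 0.28 to 0.96), with an unadjusted limma p of 0.00497 and an adjusted p of 0.457, the smallest among the members, and it stayed between 0.58 and 0.64 when any array was left out. Median centring brought it to 0.43, with a p of 0.0262 that missed the threshold.

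NFKBIB (chromosome 19, 38899666 to 38908889), which encodes IκBβ, had 235.0, 218.4 and 305.9 in the 5-Aza group and 280.7, 190.8 and 348.4 in the control group by 228388_at. The groups overlapped fully, with a log2 fold change of -0.08 (SE 0.28, 95% interval -0.80 to 0.63), an interval that leaves room for changes of the size seen for NFKBIE in either direction. Its 2 other probe sets, of a kind that may cross-hybridize, gave 0.27 and -0.03 and overlapped as well.

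The nuclear IκB proteins act with DNA-bound NF-κB instead of holding it in the cytoplasm. BCL3 (chromosome 19, 44747705 to 44760044), a partner of p50 and p52 homodimers, had signals of 805.7, 671.9 and 803.7 on the 5-Aza arrays and of 533.0, 521.7 and 682.6 on the control arrays by 204908_s_at. Only 5-Aza replicate 2 and control replicate 3 crossed, and the log2 fold change was 0.40 (SE 0.18, p of 0.0778). The second probe set, 204907_s_at, gave 328.3, 280.6 and 378.8 in the 5-Aza group and 202.6, 268.2 and 274.6 in the control group, which did not overlap, with a log2 fold change of 0.41 (p of 0.102). Signals of BCL3 and MIR8085 cannot be told apart by these probe sets.

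NFKBIZ (chromosome 3, 101827990 to 101861022) encodes IκBζ, which epithelial cells use to switch on a subset of inflammatory genes. By 223218_s_at it had 4431.0, 5732.4 and 5230.3 in the 5-Aza group and 5276.1, 5033.0 and 4931.0 in the control group. The 5-Aza arrays lay on both sides of the controls, and the log2 fold change was 0.01 (SE 0.16, 95% interval -0.41 to 0.42). The second probe set gave -0.09 with overlapping groups.

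Averaged by role and set relative to the control mean, NFKB2 and RELB together stood at 0.87, 0.73 and 0.85 (log2) on the 5-Aza arrays and at -0.03, -0.27 and 0.30 on the control arrays. NFKB1, RELA and REL together stood at 0.15, 0.18 and 0.21 in the 5-Aza group and at -0.03, -0.03 and 0.06 in the control group. The gap between both averages was 0.64 ± 0.083 in the 5-Aza group and 0 ± 0.24 in the control group (SD, n = 3 each), with no array of the groups in common range. It became 0.46 when all probe sets of a gene were averaged. NFKB2 then stood at 0.02 by taking in 211524_at (-0.77), which was above background on 1 array only. The other NFKB2 probe sets gave 0.55 and 0.28. The cytoplasmic inhibitors stood at 0.45, 0.35 and 0.56 in the 5-Aza group and at 0.05, -0.27 and 0.22 in the control group. The nuclear IκB proteins stood at 0.15, 0.20 and 0.26 in the 5-Aza group and at -0.03, -0.08 and 0.10 in the control group. Nuclear minus cytoplasmic gave -0.25 ± 0.085 in the 5-Aza group and 0 ± 0.17 in the control group, and it became 0.02 when all probe sets of a gene were averaged, the dim NFKBIA probe set included. These averages describe chosen genes and carry no test.

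**Figure D3:**
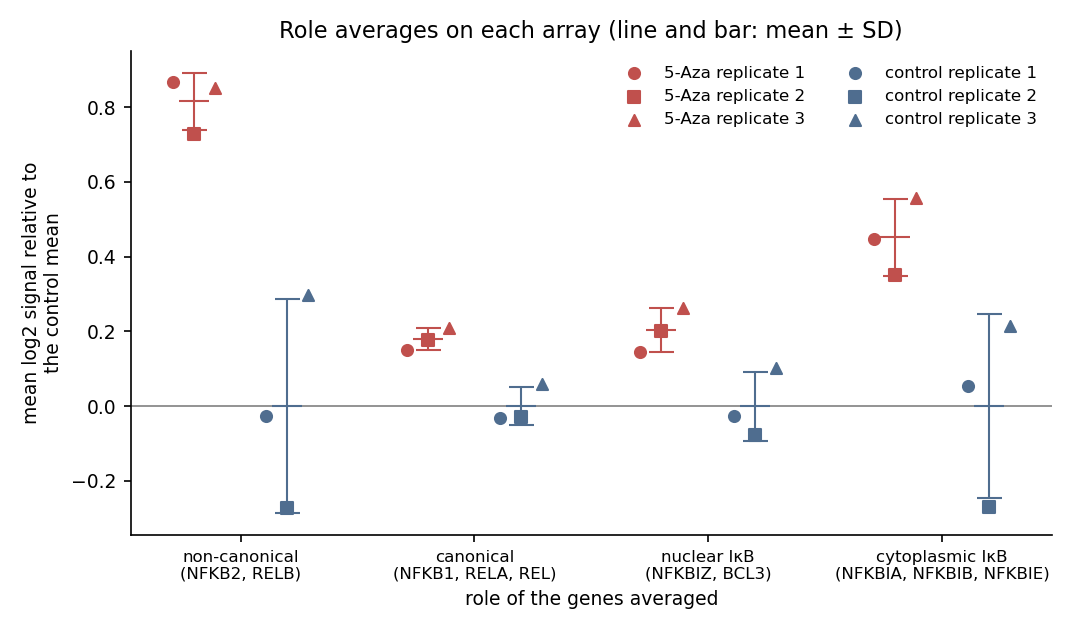
Mean log2 signal of the genes of each role on each array, relative to the control mean of that role, 5-Aza in red to the left of control in blue, a marker shape per replicate number, with the mean and SD of each group. The non-canonical subunits sit between 0.73 and 0.87 on the 5-Aza arrays and between -0.27 and 0.30 on the control arrays.

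The controls varied together for many of these genes. Control replicate 2 was the lowest control for 7 of 10 genes and control replicate 3 the highest for 6. The median signals of the whole arrays had the same order, with 71.8 for control replicate 2, 74.0 for control replicate 1 and 76.9 for control replicate 3. The share of all genes with that order was not counted, so it cannot be called particular to these genes. Control replicate 3 also had the lowest hybridization control signal of all arrays (7641, against 12885 to 16069 on the 5-Aza arrays and 12793 and 13964 on the other controls). Across the 6 arrays, which share their scaling and their split by treatment, the log2 signal of RELB had a Pearson r of 0.98 with NFKB2, 0.97 with REL, 0.96 with NFKBIA, 0.95 with BCL3 and 0.90 with NFKBIE. The values were 0.70 with NFKB1, 0.27 with RELA, 0.25 with NFKBIB and -0.07 with NFKBIZ. Among 11636 genes above background on all arrays, 81 had an r of 0.95 or more with RELB, and the 5 most alike were BICDL1 (0.996), SLC71A2 (0.994), CX3CL1, which encodes the chemokine fractalkine (0.992), DCAF16 (0.991) and IRAK2 (0.991). Such likeness over 6 arrays is a description, and 81 genes share it.

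The genes around the factor were read at the same thresholds. Receptors, ligands, kinases with adaptors, and negative regulators were listed with 80 genes, of which 72 were measured by a probe set of their own and 58 were above background on all arrays. None passed an adjusted p under 0.05 by limma, while 4 were above and 1 was below the control group with an unadjusted p under 0.025, where 3.01% and 0.915% of all genes were. With 0.05 as the limit these counts were 7 and 1, where 5.26% and 1.97% of all probe sets were. At 0.025 they were 2 and 1 by the SAM-type statistic, which had 1282 higher and 484 lower over all 54614 probe sets. With trend and robust variance they were 7 and 2, beside 1838 and 909 over all probe sets. The median log2 fold change over the 72 genes was 0.05, beside 0.04 over all genes. The groups did not overlap for 12 higher and 5 lower genes of the 72, beside 9.29% and 5.22% of all probe sets.

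Of 18 receptors, 1 was higher at an unadjusted p under 0.025 and the median was 0.06. This was CD40, at 223.2, 256.6 and 178.8 in the 5-Aza group and 110.0, 163.5 and 104.7 in the control group (log2 fold change 0.81, SE 0.25, p of 0.0216). No receptor was higher at that limit after quantile normalization or median centring, or by the SAM-type statistic. The same held without 5-Aza replicate 1, 5-Aza replicate 2, control replicate 1 or control replicate 3. In the other alternatives the count was 1 or 2. LTBR, the lymphotoxin β receptor, averaged 2100 in the 5-Aza group and 2111 in the control group. The other receptors did not pass.

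Of 9 measured ligands, 1 was higher and 1 lower at that threshold, with a median of 0.32. The interleukin gene IL1B had signals of 80.0, 85.5 and 110.6 in the 5-Aza group and 46.0, 58.6 and 56.7 in the control group (log2 fold change 0.76, SE 0.20, p of 0.0110). TNFSF13B, which encodes the B-cell factor BAFF, had 53.3, 44.2 and 51.5 in the 5-Aza group and 104.2, 157.9 and 86.8 in the control group (log2 fold change -1.17, SE 0.26, p of 0.00564). All these signals were low. TNF itself had 75.7, 75.6 and 73.1 in the 5-Aza group and 31.1, 21.9 and 2.3 in the control group, where all arrays were below 42, and its p of 0.0351 missed the threshold.

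Of 27 measured kinases and adaptors, 1 was higher at that threshold, RNF31 with 22.8 in the 5-Aza group and 10.1 in the control group, both below background, and the median was 0.04. The kinases that drive the pathway did not pass it. MAP3K14, the NF-κB inducing kinase of the non-canonical route, averaged 266.0 ± 65.2 in the 5-Aza group and 277.7 ± 23.8 in the control group, and CHUK, the kinase it activates, averaged 799.8 ± 124.1 in the 5-Aza group and 690.2 ± 146.4 in the control group (SD, n = 3 each). IKBKB and IKBKG, the other parts of the IκB kinase, had log2 fold changes of -0.01 and 0.13. At an unadjusted p under 0.05, TRAF6, a ubiquitin ligase below the interleukin-1 and Toll-like receptors, had a log2 fold change of 0.49 (SE 0.18, p of 0.0364), and the IκB kinase relative IKBKE one of 0.48 (SE 0.17, p of 0.0359). In both genes every 5-Aza array was above every control array.

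Of 18 measured negative regulators, 1 was higher at an unadjusted p under 0.025 and the median was 0.03. It was IRAK2, at 574.4, 553.0 and 557.2 in the 5-Aza group and 311.9, 286.2 and 441.6 in the control group (log2 fold change 0.72, SE 0.21, p of 0.0163). IRAK2 is known in human cells to carry interleukin-1 and Toll-like receptor signals forward, so that the name of the list does not describe it. No gene of the list passed after median centring, with the replicate block, by the SAM-type statistic or without any array but control replicate 3. In the other alternatives the count was 1 or 2. TNFAIP3, the feedback enzyme A20, had 512.6, 628.1 and 512.8 in the 5-Aza group and 284.1, 174.5 and 496.4 in the control group. Its groups did not overlap, but control replicate 3 came close to the 5-Aza arrays, and the p was 0.0701.

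**Figure D4:**
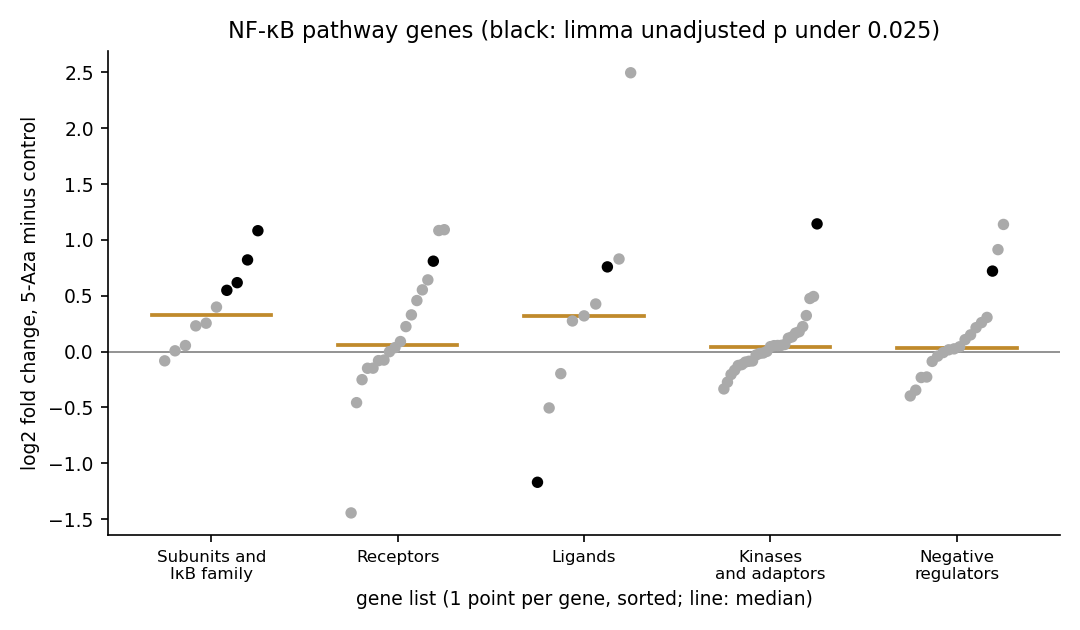
Log2 fold change (5-Aza minus control) of each gene of the subunits with the IκB family and of the 4 pathway lists, 1 point per gene in rising order, black at an unadjusted limma p under 0.025, with a line at each median. Medians are 0.33 for the 10 genes, 0.06 for receptors, 0.32 for ligands, 0.04 for kinases and adaptors and 0.03 for negative regulators.

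Most markers of other cells were at background on at least 1 array. Those above it on all arrays were ITGAM, CD79A, COL1A1 and PECAM1. Their mean signals were 308.0, 228.4, 339.7 and 177.5 in the 5-Aza group, in that order, and 187.7, 139.9, 272.7 and 132.5 in the control group. Median log2 fold changes were 0.96 for leukocyte, 0.48 for fibroblast and 0.50 for endothelial markers. Of 12 leukocyte markers 2 were above background on all arrays, their summed signal was 910 to 1091 in the 5-Aza group and 508 to 740 in the control group, and 2 of 12, AIF1 and ITGAM, had every 5-Aza array above every control array, which 9.29% of all probe sets did. The defining leukocyte gene PTPRC was below background on all 6 arrays. Fibroblast markers summed to 700 to 848 in the 5-Aza group and 631 to 684 in the control group, with 1 of 8 above background on all arrays. Endothelial markers summed to 276 to 365 in the 5-Aza group and 212 to 246 in the control group, with 1 of 6 above background on all arrays. The endothelial gene VWF averaged 55.2 in the 5-Aza group and 13.1 in the control group, with groups apart and an unadjusted limma p of 0.0150. These sums moved with the treatment as RELB, NFKB2, NFKBIA and NFKBIE did. Their part in these differences, like that of the ACTB difference, was not tested.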

How the data were processed

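RNA from HT-29 cells was measured on 6 HGU133 Plus2.0 microarrays, and samples were grouped by their labels. The deposited table holds linear intensity values, 1 per probe set and array, which the authors made with the affy package per their processing notes. Version, background correction and summarization are not given in the sources used here. The labels name 3 µg of RNA and an RNeasy Mini kit, the study's methods another kit and amount. No column of another sample was present. Of 54675 probe sets, 61 controls were left out (the Alu control was kept), and log2(intensity + 1) was compared over 54614 with limma 3.58.1 in R 4.3.3, 5-Aza minus control, with Benjamini-Hochberg adjustment. The added constant of 1 understates changes of low signals, and the number of arrays limits the precision. The model and the SAM-type statistic were tested on simulated data. Symbols came from the platform annotation (41097 probe sets with 1 symbol, 1801 with several, 11777 with none). BCL3 probe sets also carry MIR8085. A gene was represented by its brightest probe set with 1 symbol, _x_at only where no other existed. Genes without one (TNFSF12, CD40LG, TRAF2, RIPK1, IRAK4, CARD9, BIRC3, ZC3H12A, CD68) were not used here.

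Named were all 10 genes, up to 4 list genes per direction with groups apart and an unadjusted p under 0.05 above background, and the 5 genes most like RELB, while LTBR, MAP3K14, CHUK, IKBKB, IKBKG, RNF31, TNFAIP3 and single markers were added after their values were seen. Members and lists were chosen with earlier results of these data known. Deviations of arrays with the same replicate number correlated at -0.01, 0.00 and 0.01 over all probe sets. Among probe sets above background on all arrays they correlated at -0.04, -0.05 and 0.09. The numbers were therefore not taken as pairs. Alternatives were quantile normalization, median centring, 16 as the constant, a replicate block, trend and robust variance, only probe sets above the median, no _x_at probe sets, averaging a gene's probe sets, the ratio of group means, the SAM-type statistic and leaving out each array. Start site windows, chromosomes and positions are from RefSeq (GRCh38.p14).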

Additional observations from a re-analysis of the deposited data

How the results depend on the processing

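RELB kept its direction in all 15 alternatives, between 0.90 and 1.31, with an unadjusted p under 0.025 in each that gave a p. Of the 20 probe sets, 4 were higher at that threshold as reported, 2 after median centring (with 1 lower), 2 with the replicate block, where NFKB2 (p of 0.0450) and NFKBIE (p of 0.0277) were lost and no other member call changed, and 1 by the SAM-type statistic. Leaving out 1 array at a time gave 2 (without 5-Aza replicate 1 or 5-Aza replicate 3) to 4 higher, and 0 to 1 lower. None passed an adjusted p under 0.05 in any alternative. Groups apart numbered 6 higher and 1 lower as reported, and 4 higher and 2 lower after median centring, an alternative chosen after seeing the data. Pathway list genes higher numbered 4 as reported, 2 after quantile normalization, 1 after median centring, 7 with trend and robust variance, 2 by the SAM-type statistic, and 1 to 6 with an array left out, while 1 was lower as reported, 3 after median centring, 2 with trend and robust variance and 2 among probe sets above the median. Directions turned only in genes with small changes or dim probe sets. Median centring gave RELA -0.13 and NFKBIZ -0.18. Averaging a gene's probe sets gave RELA -0.10, NFKBIA -0.19, NFKBIB 0.050 and NFKBIZ -0.039, and turned nuclear minus cytoplasmic to 0.020 by taking in the dim NFKBIA probe set. Non-canonical minus canonical subunits went from 0.64 to 0.46 by that averaging, with NFKB2 at 0.02 by taking in the dim 211524_at. With an array left out, RELA ran from -0.0018 to 0.12, NFKBIB from -0.32 to 0.11 and NFKBIZ from -0.077 to 0.11. BCL3 passed the unadjusted threshold with trend and robust variance (p of 0.0228). Other causes were not tested. The sources used here do not state what same-numbered arrays share. Dim signals near 42 limit NFKB2 211524_at, NFKBIA 231699_at, REL 206035_at and most ligands.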
